A study of Mus musculus with 10 samples.

Results

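Immune checkpoint genes were examined in subcutaneous (s.c.) tumors of Panc02, a mouse pancreatic cancer cell line. The 10 genes were taken by name from the 37417 genes of the count table: 5 inhibitory receptors (Pdcd1, Lag3, Havcr2, Tigit and Ctla4), 4 ligands or B7 family proteins (Cd274, Pdcd1lg2, Cd276 and Vsir) and 1 transcription factor of exhausted T cells (Tox). The tumors fell into 2 groups of 5. In the sgCda group the injected cells carried a guide RNA against Cda, which encodes cytidine deaminase, and in the control group (sgNT) they carried a nontargeting guide. All injected cells had been transduced with a doxycycline-inducible Cas9 nuclease and a guide, and selected with drugs. The hosts of both groups were 12-week-old C57BL/6J mice labelled wild type, given the same number of cells in 200 µL, and tumors were taken on day 16. No treatment was labelled for either group. Because the guide was in the injected cells, host cells of an sgCda tumor kept Cda. The purpose of the comparison was to describe tumors in which the cancer cells had been targeted for Cda.

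The guide defines the sgCda group, so its target is shown, with the 3 bases next to it that Cas9 requires (the PAM) in capitals. It matched the sense strand of 1 of 2 annotated Cda transcripts, from base 261 on.
Cda target: tccagaaggccatctccgaaGGG
The nontargeting guide matched 0 of the 2 transcripts.

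Checkpoint receptors are brakes on T cells. PD-1, the product of Pdcd1, appears on T cells after activation and is engaged by PD-L1 (Cd274) and PD-L2 (Pdcd1lg2) on cancer cells, macrophages and dendritic cells. CTLA-4 competes with the costimulatory receptor CD28 for its ligands and is abundant on regulatory T cells, LAG-3 binds MHC class II, TIGIT binds the poliovirus receptor, and TIM-3 (Havcr2) is carried by T cells and by myeloid cells. VISTA (Vsir) is mostly a protein of myeloid cells, B7-H3 (Cd276) is found on many tumor and stromal cells, and Tox sustains the state of T cells under lasting antigen exposure. Interferon-γ is a known inducer of Cd274.

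Libraries held 28051907 to 39484964 counts assigned to genes, and each checkpoint gene had at least 141 counts in every library, so levels were well above the 3 counts taken as the limit of detection. Cda itself, the targeted gene, had a mean of 12.1 ± 1.76 CPM (read counts relative to library size, scaled by the trimmed mean of M values, TMM, as mean ± SD, n = 5) in sgNT and 9.77 ± 2.34 CPM in sgCda tumors. The groups overlapped, 2 of 5 sgCda tumors lay above the sgNT mean, and the log2 fold change was −0.30 (95% confidence interval (CI) −0.67 to 0.064, edgeR unadjusted p = 0.0963), so Cda transcript did not separate the groups. Transcripts with small edits are still counted. Of the epithelial markers, Krt8 and Krt18 were abundant (means of 476 and 230 CPM in sgNT) but Epcam (1.03 CPM in sgNT and 1.77 CPM in sgCda) and Krt7 (0.472 and 0.893 CPM) were close to 0. Skeletal muscle markers varied most, with a summed level of 5.31 to 566.5 CPM over the 5 sgNT tumors and 5.16 to 2301 CPM over the 5 sgCda tumors, the highest in sgCda replicate 3. The library of sgCda replicate 4 had the most reads outside genes, 18.4% against 10.3% to 14.9% in the others. In bulk tumor RNA, fewer cells of a type and less RNA per cell cannot be told apart.

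None of the 10 checkpoint genes differed between sgCda and sgNT tumors beyond the spread between tumors. All 10 passed the expression filter, and 0 had an adjusted p under 0.05 in edgeR's quasi-likelihood test, where the background was 0 of 15299 genes (0.00%). At an unadjusted p under 0.05 there were again 0 of 10 against 2.50% of all genes (0 higher in sgCda against 1.54%, and 0 lower against 0.954%), and DESeq2 and limma-voom likewise gave 0 of 10 at an unadjusted p under 0.05. The groups overlapped for every checkpoint gene, against 0.601% of all genes without overlap. The fold change was positive for 5 genes and negative for 5, and 52.9% of all genes were positive. The median log2 fold change of the 10 was 0.012, beside 0.0078 over all genes. The adjusted p was 0.9996 for each of them, which was also the smallest adjusted p of any gene.

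The precision of these comparisons differed widely between genes. The narrowest 95% CI was that of Cd276, from 21.0% lower to 2.70% higher in sgCda, followed by Havcr2, from −12.9% to 26.2%. The intervals were wide for Pdcd1 (−41.0% to 65.2%), Lag3 (−38.5% to 69.4%) and Tox (−39.6% to 64.4%), so differences anywhere within those bounds are compatible with these 10 tumors. These 3 genes had a biological coefficient of variation (the spread between tumors of a group beyond counting error) of 0.372, 0.367 and 0.370, above that of over 88% of the genes tested, whose median was 0.158.

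**Figure D1:**
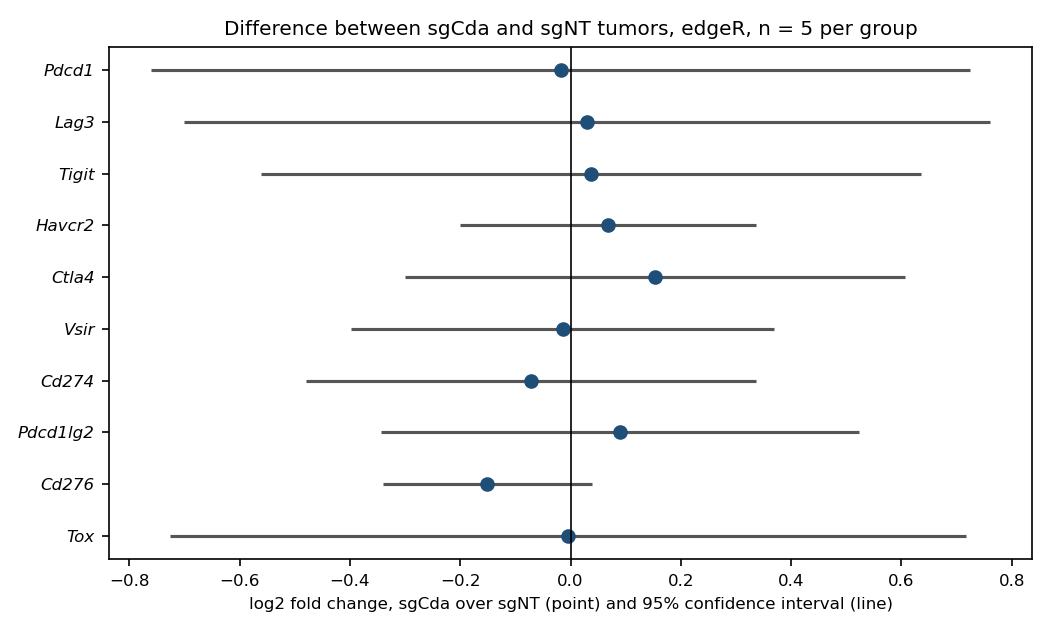
Log2 fold change of each checkpoint gene, sgCda over sgNT, from edgeR (point) with its 95% confidence interval (line), n = 5 tumors per group. All 10 intervals cross 0, and Cd276 has the narrowest, from −0.34 to 0.038.

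Relative to exon length, Pdcd1 had the highest mean level of the 10 transcripts in these tumors and Tox the lowest. Pdcd1 had a mean of 36.0 ± 15.1 CPM per kilobase of merged exons over all tumors (SD, n = 10), Cd274 27.8 ± 6.34, Cd276 21.5 ± 2.31, Vsir 21.1 ± 4.33, Havcr2 18.7 ± 2.65, Tigit 15.5 ± 5.42 and Lag3 14.4 ± 6.29 CPM per kilobase. Below these came Ctla4 at 7.46 ± 1.86, Pdcd1lg2 at 6.99 ± 1.69 and Tox at 1.21 ± 0.446 CPM per kilobase. For most neighbours in this order the mean difference within a tumor was smaller than its SD. Pdcd1 exceeded Cd274 in 7 of 10 tumors, by 8.21 ± 15.9 CPM per kilobase, and Cd276 exceeded Vsir in 7 of 10, by 0.450 ± 5.83. Ctla4 exceeded Pdcd1lg2 in 6 of 10. The order held more often for Cd274 over Cd276 and Tigit over Lag3 (8 of 10 each). It held in 9 of 10 for Vsir over Havcr2 (2.37 ± 3.11) and Havcr2 over Tigit (3.24 ± 3.48). Only Lag3 over Ctla4 (6.96 ± 5.02) and Pdcd1lg2 over Tox (5.78 ± 1.59) held in 10 of 10 tumors among the 9 neighbouring pairs.

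**Figure D2:**
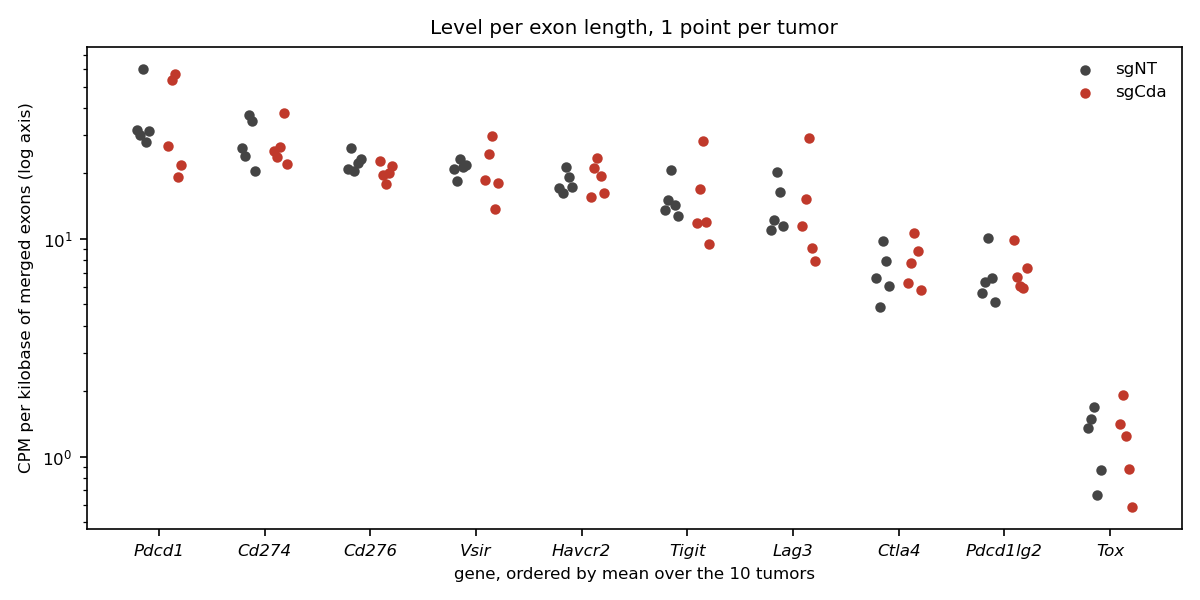
Level of each checkpoint gene per kilobase of merged exons on a log axis, 1 point per tumor, ordered by the mean over 10 tumors. The 10 tumors overlap between most neighbours, whereas Tox lies below every other gene in every tumor.

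Pdcd1, the gene for PD-1, is on the minus strand of chromosome 1 (ENSMUSG00000026285, 94038305 to 94052553, GRCm38, 5 exons). Its levels in sgNT replicates 1 to 5 were 60.8, 57.9, 116.4, 53.7 and 60.7 CPM, and in sgCda replicates 1 to 5 they were 51.8, 103.9, 110.0, 36.9 and 42.3 CPM. The levels fell into a lower set of 7 tumors, at most 60.8 CPM, and an upper set of 3, at least 103.9 CPM, that held sgNT replicate 3 and sgCda replicates 2 and 3, so both groups spanned both sets. The means were 69.9 ± 26.2 CPM in sgNT and 69.0 ± 35.1 CPM in sgCda (SD, n = 5 each). The log2 fold change was −0.018 (SE 0.34), and its sign turned when sgNT replicate 3 or sgCda replicate 1, 4 or 5 was left out, over a range of −0.25 to 0.25.

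Promoter sequences are shown for Pdcd1 and Tigit, receptors of T cells, and for Cd274, the gene of a PD-1 ligand. They are from RefSeq (GRCm38.p6), as 250 bases before to 50 after the transcription start. Capitals mark matches to GGAAA on either strand, the core bound by NFAT, a factor of T cell receptor signalling that is known to act on Pdcd1. The Pdcd1 window is chr1:94052504-94052803 (minus strand), that of Tigit is chr16:43664135-43664434 (minus strand) and that of Cd274 is chr19:29367188-29367487 (plus strand).
Pdcd1 promoter: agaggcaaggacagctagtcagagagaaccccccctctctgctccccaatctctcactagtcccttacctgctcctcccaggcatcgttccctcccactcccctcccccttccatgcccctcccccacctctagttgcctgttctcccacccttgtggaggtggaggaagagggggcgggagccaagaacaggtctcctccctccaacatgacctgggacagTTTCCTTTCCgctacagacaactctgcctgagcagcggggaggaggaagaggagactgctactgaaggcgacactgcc
Tigit promoter: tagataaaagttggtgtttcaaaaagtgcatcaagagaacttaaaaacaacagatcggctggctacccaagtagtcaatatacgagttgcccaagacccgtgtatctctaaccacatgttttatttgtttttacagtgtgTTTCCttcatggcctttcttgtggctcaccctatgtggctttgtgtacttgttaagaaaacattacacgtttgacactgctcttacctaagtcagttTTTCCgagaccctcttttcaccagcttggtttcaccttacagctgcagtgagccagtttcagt
Cd274 promoter: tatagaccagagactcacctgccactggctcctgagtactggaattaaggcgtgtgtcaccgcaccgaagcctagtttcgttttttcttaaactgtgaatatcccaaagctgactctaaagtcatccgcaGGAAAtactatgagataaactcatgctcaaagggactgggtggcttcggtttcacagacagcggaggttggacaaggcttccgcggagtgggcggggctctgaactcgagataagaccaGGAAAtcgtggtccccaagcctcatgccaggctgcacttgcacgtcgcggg
RefSeq windows were matched for 8 of the 10 genes, all but Lag3 and Tox. GGAAA was present in 6 of these 8 (Pdcd1, Tigit, Cd274, Ctla4, Cd276 and Pdcd1lg2) and in 61.3% of all 32851 promoter windows, so it is common at this length. The interferon-γ activated site TTCNNNGAA was present in 0 of 8 (8.30% of all windows) and the core of the interferon-stimulated response element in 0 of 8 (3.44%). An AP-1 site, TGANTCA, was found in Havcr2 alone of the 8 (7.81% of all windows). The letters TATAAA were found in Ctla4 alone (13.6%), where they began at base 41 after the transcription start and not before it. All motifs were searched on both strands. These are matches of letters in a short window and not measured binding sites.

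The PD-1 ligands Cd274 and Pdcd1lg2 are neighbours on chromosome 19 (Cd274 is ENSMUSG00000016496, at 29367455 to 29388095, and Pdcd1lg2 at 29410919 to 29471161, both on the plus strand, with 7 and 5 exons). Cd274 levels were 94.7, 86.7, 134.0, 125.6 and 74.4 CPM in sgNT replicates 1 to 5 and 91.5, 86.2, 96.0, 137.1 and 79.6 CPM in sgCda replicates 1 to 5. The highest tumor was sgCda replicate 4, the tumor with the lowest Pdcd1, and 4 of 5 sgCda tumors lay below the sgNT mean. Means were 103.1 ± 25.6 CPM in sgNT and 98.1 ± 22.6 CPM in sgCda, a difference of −4.87% (95% CI −28.3% to 26.2%), and the sign turned without sgNT replicate 3 or 4 (range of the log2 fold change −0.22 to 0.041). In the annotation, 511 exonic bases of Cd274 (14.1%) are shared with a transcript of the opposite strand, and the strand setting of the counting was not stated, so its counts carry that uncertainty.

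Pdcd1lg2 (ENSMUSG00000016498), which encodes the second PD-1 ligand, was at 11.1, 12.5, 19.7, 13.0 and 10.1 CPM in sgNT and 19.4, 13.1, 12.0, 11.7 and 14.4 CPM in sgCda tumors in replicate order. The 2 highest tumors came from different groups, sgNT replicate 3 and sgCda replicate 1, and the other 8 lay between 10.1 and 14.4 CPM. The log2 fold change was 0.090 (SE 0.20, edgeR unadjusted p = 0.655), and it was −0.049 without sgCda replicate 1. Across the 10 tumors the log2 CPM of the 2 ligands gave Pearson's r = 0.29 (Spearman's rho = 0.10, two-sided permutation p = 0.422), and 0.14 without sgCda replicate 4 and sgNT replicate 3.

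Lag3 and Tigit, receptors of activated and exhausted T cells and of NK cells, had nearly the same pattern across tumors. Lag3 (ENSMUSG00000030124, chromosome 6, 124904361 to 124911705, minus strand, 8 exons) was at 23.1, 25.8, 42.7, 34.7 and 24.2 CPM in sgNT and at 24.2, 32.3, 61.1, 19.2 and 16.7 CPM in sgCda tumors in replicate order. The sgCda group thus held both the highest tumor (replicate 3) and the 2 lowest (replicates 4 and 5), with a coefficient of variation of 58.7% against 28.0% in sgNT. The log2 fold change was 0.029 (SE 0.33). It was −0.38 without sgCda replicate 3 (edgeR unadjusted p = 0.127), and it was also negative without sgNT replicate 1, 2 or 5.

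Tigit (ENSMUSG00000071552, chromosome 16, 43648867 to 43664146, minus strand, 4 exons) was at 12.5, 13.8, 19.1, 13.1 and 11.7 CPM in sgNT tumors and at 10.9, 15.5, 25.9, 11.02 and 8.67 CPM in sgCda tumors. As for Lag3, sgCda replicate 3 was highest and sgCda replicate 5 lowest, with coefficients of variation of 20.8% in sgNT and 47.8% in sgCda. The log2 fold change was 0.037 (SE 0.27), −0.28 without sgCda replicate 3, and also below 0 without sgNT replicate 1 or 5. The level of Lag3 followed that of Tigit with r = 0.96 (Spearman's rho = 0.90, permutation p = 0.000120, adjusted over 45 pairs of checkpoint genes 0.00540), and r was 0.85 without the 2 tumors in which Lag3 was farthest from its median, sgCda replicate 3 and sgNT replicate 3.

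Havcr2 and Ctla4 were also alike, but not as a pair apart from the other receptors. Of the 45 pairs of checkpoint genes, 11 had an adjusted permutation p under 0.05 by r and 5 by rho, some with Pdcd1. Havcr2 had r = 0.83 with Tigit and 0.80 with Lag3 (adjusted permutation p by r 0.0129 and 0.0226), neither kept by rank. Lag3 and Vsir (r = 0.84, rho = 0.83) passed by both. Havcr2 (ENSMUSG00000020399, chromosome 11, 46454935 to 46481255, plus strand, 7 exons) was at 46.5, 44.2, 58.2, 52.2 and 47.3 CPM in sgNT and at 42.4, 57.5, 63.9, 52.7 and 44.0 CPM in sgCda tumors, a spread of 1.51-fold from lowest to highest. Ctla4 (ENSMUSG00000026011, chromosome 1, 60887000 to 60915832, plus strand, 4 exons) was at 15.4, 11.3, 22.9, 18.5 and 14.2 CPM in sgNT and at 14.6, 18.1, 24.7, 20.6 and 13.6 CPM in sgCda tumors. Both genes were highest in sgCda replicate 3, and across the 10 tumors their levels gave r = 0.90 (rho = 0.85, permutation p = 0.000580, adjusted 0.00652) and 0.89 without sgCda replicates 1 and 3. Havcr2 had a log2 fold change of 0.068 (SE 0.12), which was −0.016 without sgCda replicate 3. Ctla4 had the largest positive value of the 10 genes, 0.15 (SE 0.21, 95% CI −0.30 to 0.61, edgeR unadjusted p = 0.472), and it stayed positive with any 1 tumor left out (0.021 to 0.30).

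Vsir, the gene for VISTA, lies on the plus strand of chromosome 10 (ENSMUSG00000020101, 60346851 to 60372684, 7 exons) within the span of Cdh23, a gene of the opposite strand, without sharing exonic bases. Its 5 sgNT levels were close together, at 104.9, 92.5, 117.1, 107.4 and 109.1 CPM. The 5 sgCda levels were 93.6, 122.8, 149.5, 69.0 and 90.8 CPM, so that the highest 2 and the lowest 2 of all 10 tumors were sgCda tumors. Means were nearly equal at 106.2 ± 8.93 and 105.1 ± 31.3 CPM, with coefficients of variation of 8.41% and 29.8%. The SD of log2 CPM was 3.45 times as large in sgCda as in sgNT tumors, the largest such ratio of the 10 genes. For Cd274, Pdcd1lg2, Ctla4 and Cd276 the SD was smaller in sgCda, with ratios of 0.84, 0.80, 0.92 and 0.94. The share of all genes with a wider spread in sgCda was not computed. A difference in spread was not tested. Without sgNT replicate 3 or sgCda replicate 1, 4 or 5 the log2 fold change of Vsir, −0.014 (SE 0.17), turned positive, with a range of −0.18 to 0.11 over tumors left out.

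**Figure D3:**
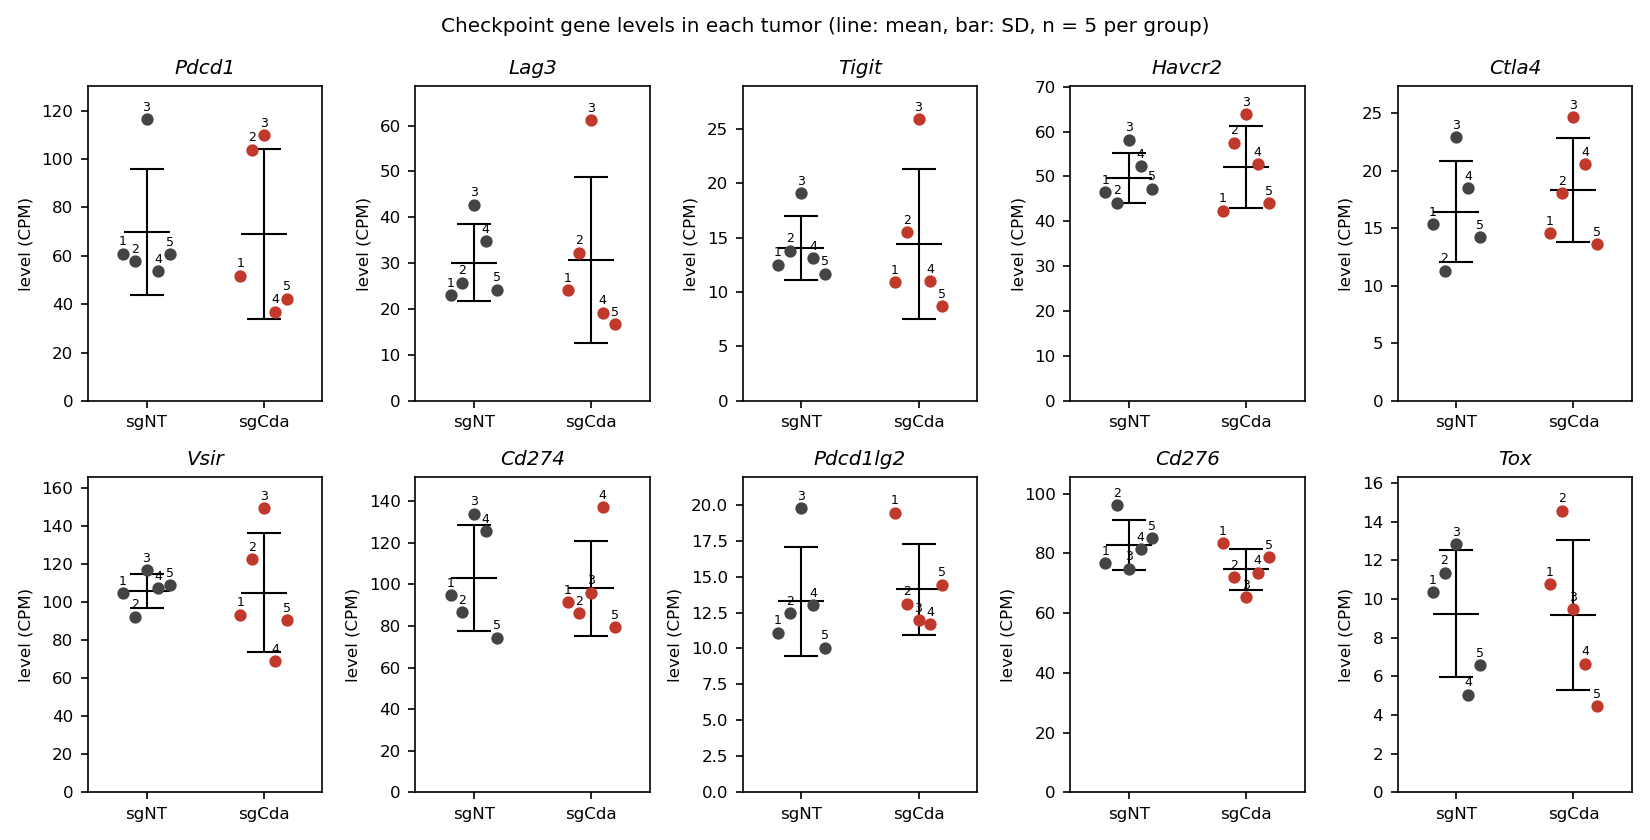
Level of each checkpoint gene in CPM in every tumor, labelled by replicate number, with the group mean (line) and SD (bar), n = 5 per group. For Lag3, Tigit, Havcr2, Vsir and Tox the 5 sgCda tumors extend above and below the 5 sgNT tumors.

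Cd276 had the smallest p of the 10 genes and differed from the T cell receptors in its pattern. It lies on chromosome 9 (ENSMUSG00000035914, 58524298 to 58555437, minus strand, 8 exons). Levels were 76.7, 96.1, 74.9, 81.4 and 85.1 CPM in sgNT and 83.5, 72.0, 65.4, 73.6 and 78.7 CPM in sgCda tumors. Of the 5 sgCda tumors 3 lay below the lowest sgNT tumor and 1 above the sgNT mean. Means were 82.8 ± 8.41 and 74.6 ± 6.86 CPM, a log2 fold change of −0.15 (SE 0.086, 95% CI −0.34 to 0.038), with an unadjusted p of 0.107 in edgeR. Its sign was negative in all 22 alternative analyses, but its size was not stable. The log2 fold change was −0.094 without sgNT replicate 2 (edgeR unadjusted p = 0.263), −0.089 without sgCda replicates 3 and 4, and −0.039 in limma-voom with quality weights (unadjusted p = 0.612). With the macrophage marker score as a covariate it was −0.15 (edgeR unadjusted p = 0.0422, adjusted 0.9995). The exonic bases it shares with an opposite-strand transcript, Gm10657, number 416 (11.4%).

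Tox (ENSMUSG00000041272, chromosome 4, 6686353 to 6991557, minus strand, 9 exons) was the transcript of lowest level per exon length and among the most variable between tumors. It was at 10.4, 11.4, 12.8, 5.06 and 6.58 CPM in sgNT and at 10.8, 14.6, 9.48, 6.66 and 4.46 CPM in sgCda tumors. The groups overlapped over nearly their whole ranges, and the highest tumor, sgCda replicate 2, was 3.27 times the lowest, sgCda replicate 5. The log2 fold change was −0.0052 (SE 0.33), and values without 1 tumor ran from −0.23 to 0.17, positive without sgNT replicate 1, 2 or 3 or sgCda replicate 4 or 5. Tox shares 260 exonic bases (3.42%) with Gm11802 of the opposite strand.

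Levels of the receptors differed more between tumors of a group than between the group means, and a few tumors held most of the extremes. Of all 10 tumors, sgCda replicate 3 had the highest level of 5 of the 10 genes (Lag3, Havcr2, Tigit, Ctla4 and Vsir) and the lowest of Cd276, and sgCda replicate 5 had the lowest of 3 (Lag3, Tigit and Tox). The same sgCda replicate 3 ranked first for the T cell score, the mean log2 CPM of 13 T cell markers such as Cd3e and Cd8a (5.59, against 4.09 to 5.12 in the others), and for the macrophage score over 12 markers such as Csf1r and C1qa (7.69, against 7.13 to 7.57). It also had the most skeletal muscle transcript. With the muscle score as a covariate, an alternative chosen after seeing the data, 0 of 10 genes passed and their median log2 fold change was −0.12. With the T cell or the macrophage score as a covariate, 0 of 10 passed the adjusted threshold as well.

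Among the 3 marker lists compared, Lag3 and Tigit had their highest r with T cell, Vsir with macrophage and Ctla4 with regulatory T cell markers. The r of the 2 PD-1 ligands with the T cell and macrophage markers lay closest to 0. The T cell and macrophage scores were themselves alike, since both ranked sgCda replicate 3, sgNT replicate 3 and sgCda replicate 2 highest, in that order. A relation with either of these 2 scores therefore does not tell the cell types apart. The regulatory T cell score also ranked sgCda replicate 3 and sgNT replicate 3 highest, so its relations do not single out 1 cell type either. Each checkpoint gene's log2 CPM was compared with the T cell, macrophage and regulatory T cell scores over the 10 tumors, 30 relations in all, with two-sided permutation p values (100000 resamples) adjusted over the 30. By Pearson's r 12 relations had an adjusted p under 0.05, and by Spearman's rho 7, in each case including 2 of Pdcd1, whose pooled values are not given because its levels fell into separate sets. The 5 relations lost by rank were Tigit with the T cell score (adjusted p by rho 0.0585), Lag3 and Tigit with the macrophage score (0.0623 and 0.0629), Havcr2 with the T cell score (0.138) and Cd276 with the regulatory T cell score (0.0520), and adjusted p values below are by r. All points share a table and its scaling, and 5 tumors a group are too few for values within a group. How many of all genes would pass against these scores was not counted. The 12 and 7 relations are therefore not shown to be particular to the checkpoint genes. Lag3 followed the T cell score with r = 0.96 (rho = 0.83, p = 6.00e-05, adjusted 0.00100), and r was 0.86 without sgCda replicate 3 and sgNT replicate 3. Tigit did so with r = 0.94 (rho = 0.75, p = 1.00e-04, adjusted 0.00100) and 0.80 without the same 2 tumors. Both also followed the macrophage score (Lag3 r = 0.88, rho = 0.73, adjusted p = 0.00463; Tigit r = 0.83, rho = 0.72, adjusted p = 0.0111), but without those tumors r dropped to 0.63 and 0.46.

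Vsir was closest to the macrophage score (r = 0.92, rho = 0.89, p = 0.000170, adjusted 0.00127), with 0.83 left when sgCda replicates 3 and 4 were removed, and it also followed the T cell score (r = 0.86, rho = 0.87, adjusted p = 0.00855, 0.78 without those tumors). Ctla4 was closest to the regulatory T cell score, built from 6 markers including Foxp3 and Il2ra (r = 0.92, rho = 0.92, p = 7.00e-05, adjusted 0.00100), and r was 0.82 without sgCda replicate 3 and sgNT replicate 2. It also had r = 0.76 with the NK cell score and 0.76 with the skeletal muscle score, which were not among the relations tested.

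Havcr2 followed the regulatory T cell score (r = 0.80, rho = 0.79, p = 0.00497, adjusted 0.0149), with 0.91 without sgCda replicates 1 and 3, and the T cell score more loosely (r = 0.75, rho = 0.61, adjusted p = 0.0267, 0.74 without those tumors). Cd276 was the only gene of the 10 with negative values throughout. Its r was −0.75 with the regulatory T cell score (rho = −0.76, p = 0.0116, adjusted 0.0290), but it dropped to −0.35 without sgNT replicate 2 and sgCda replicate 3, so the relation rests on those tumors. Cd276 and Ctla4 likewise moved in opposite directions (r = −0.85, rho = −0.79, permutation p = 0.00156, adjusted over 45 pairs 0.0129, −0.63 without sgCda replicate 3 and sgNT replicate 2). By rank the adjusted permutation p of that pair was 0.0596. Cd276 and Havcr2 had r = −0.79 (adjusted permutation p 0.0231 by r and 0.0629 by rho).

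For Cd274, r was 0.14 with the T cell score and 0.073 with the macrophage score, the closest to 0 of the 10 genes for both (adjusted p = 0.736 and 0.840). These 2 values are uncertain, since with 1 tumor left out they ran from −0.047 to 0.42 and from −0.16 to 0.49, and without sgCda replicate 4 and sgNT replicate 3 they were 0.30 and 0.32. With the regulatory T cell score Cd274 had r = 0.53 (rho = 0.60, adjusted p = 0.150, 0.34 without those tumors). Its r with the fibroblast score, which was not among the relations tested, was −0.75. Pdcd1lg2 had 0.18 with the T cell and 0.20 with the macrophage score (adjusted p = 0.689 and 0.663), and −0.14 and −0.085 without sgNT replicate 3 and sgCda replicate 1. Tox, a factor of T cells, had r = 0.57 with the T cell score (rho = 0.54, p = 0.0819, adjusted 0.129). For Pdcd1, r was taken within the 7 tumors of the lower set, where it was 0.74 with the T cell score (rho = 0.39) and 0.70 with the macrophage score (rho = 0.61). That set was defined by the level of Pdcd1 itself, so these values are a description without a test, and for the 3 upper tumors no value can be given.

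**Figure D4:**
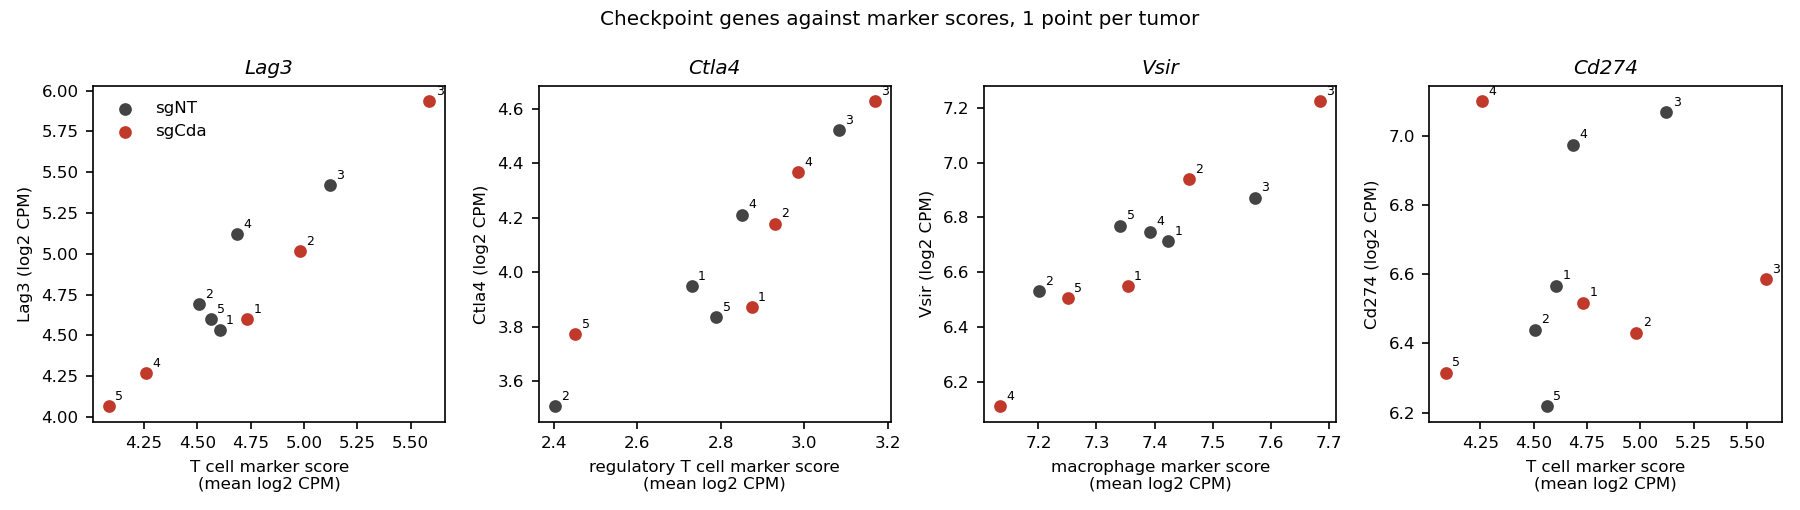
Log2 CPM of Lag3, Ctla4, Vsir and Cd274 against a marker score (mean log2 CPM of the list named on the x axis), 1 point per tumor with its replicate number. Lag3, Ctla4 and Vsir climb with their scores (r = 0.96, 0.92 and 0.92), whereas Cd274 is scattered against the T cell score (r = 0.14).

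**Figure D5:**
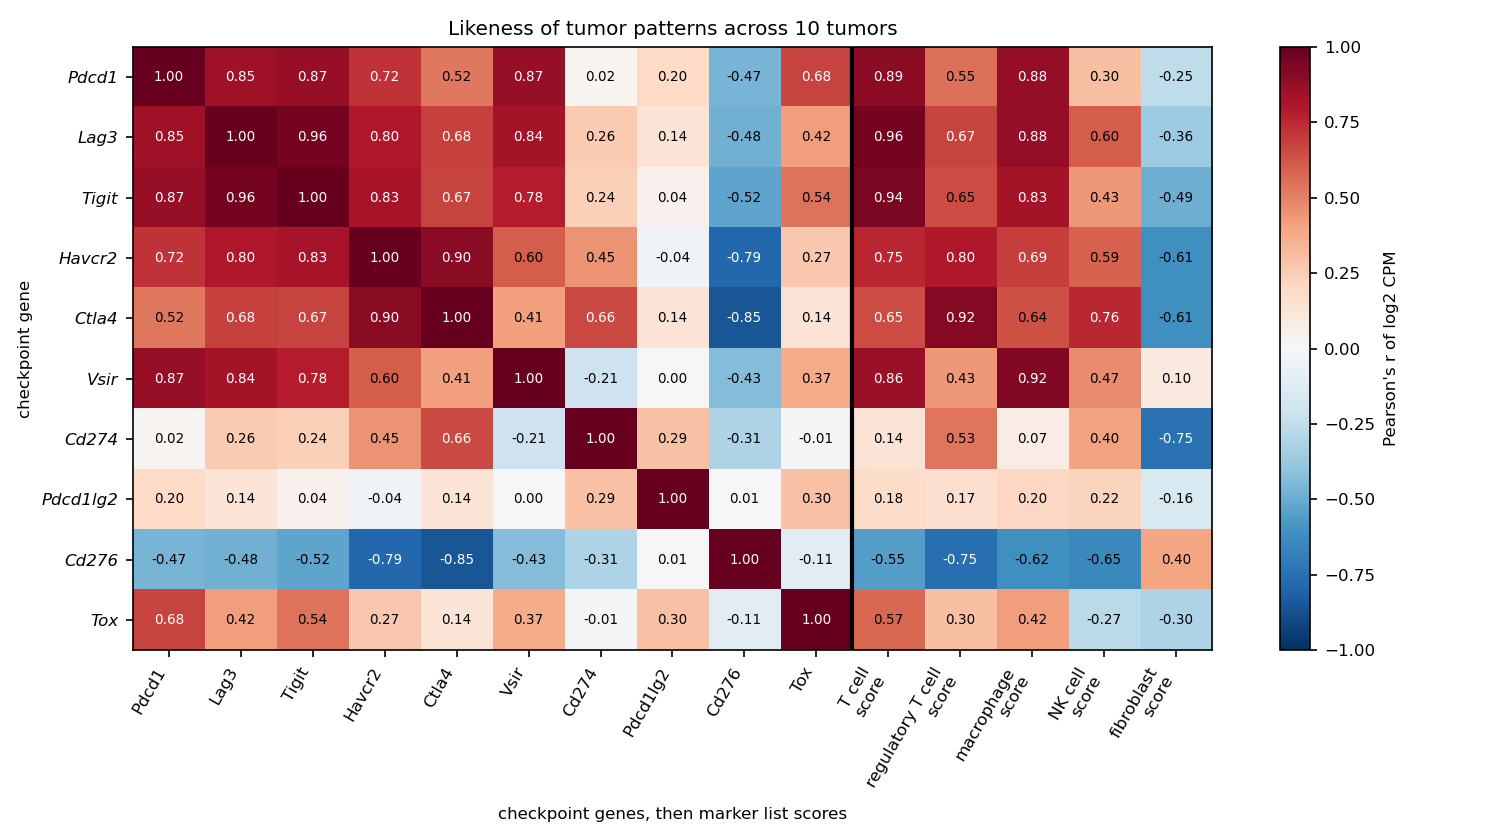
Pearson's r of log2 CPM over the 10 tumors between the checkpoint genes and, right of the line, between each gene and 5 marker list scores. Lag3 and Tigit (0.96) and Havcr2 and Ctla4 (0.90) are the pairs of highest r, the row of Cd276 is mostly negative, and the row of Pdcd1 pools 7 tumors of lower and 3 of higher level.

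The genes whose pattern over the 10 tumors was most like that of each checkpoint gene were taken from 13425 genes with a mean log2 CPM of at least 0, other checkpoint genes left out. Their r is the highest of so many values and is given as a description. Nearest to Pdcd1 were Laptm5, Fermt3 and Psap (r = 0.97, 0.97 and 0.96), of which Psap encodes a lysosomal protein, and these values pool the 7 tumors of lower and the 3 of higher Pdcd1. Nearest to Lag3 were Gimap7, Cd247 and Itgb2 (0.98, 0.97 and 0.97), where Cd247 is the CD3 zeta chain and 1 of the T cell markers, and nearest to Tigit were Zc3h12d, Gimap4 and Sh2d2a (0.97, 0.97 and 0.96), the last a T cell adaptor. Nearest to Havcr2 were Epsti1, Pstpip1 and the interferon-γ receptor gene Ifngr1 (0.95, 0.95 and 0.94).

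Cd274 was nearest to Irgm1, Bmp2 and Gbp7 (0.94, 0.91 and 0.91), and Irgm1 and Gbp7 are interferon-inducible GTPases. Mean levels in sgNT and sgCda tumors were 414.8 and 381.1 CPM for Irgm1 and 359.0 and 334.6 CPM for Gbp7. Pdcd1lg2 was nearest to Rnf19b, Zdhhc20 and the adenosine receptor gene Adora2b (0.94, 0.87 and 0.87). Ctla4 was nearest to Cox17, AI662270 and Rap2b (0.97, 0.96 and 0.96), Cd276 to Rin3, Map1a and Bace1 (0.96, 0.94 and 0.94), and Vsir to Slc25a10, Gstt2 and Arhgap9 (each 0.98). Tox was nearest to Zfp683, which encodes Hobit, a factor of tissue-resident T cells (0.94), and to Akap13 and Atmin (each 0.93), although Zfp683 was low (2.95 CPM in sgNT, 2.65 in sgCda).

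No gene of the wider checkpoint pathway passed the test either, where the background was again 0 of 15299 genes. Of all genes, 2.50% had an unadjusted p under 0.05 in edgeR and 52.9% had a positive log2 fold change. Of 16 other checkpoint receptors, all tested, 0 had an adjusted or unadjusted p under 0.05, 11 had a positive and 5 a negative log2 fold change, and the median was 0.029. The smallest p in each direction belonged to Cd160, a receptor of NK and CD8+ T cells (5.56 CPM in sgNT and 6.20 CPM in sgCda, log2 fold change 0.16, edgeR unadjusted p = 0.508), and Ceacam1 (1.29 and 1.11 CPM, −0.22, edgeR unadjusted p = 0.346). Among 20 other ligands 15 were tested, 4 were below the filter (Clec4g, Fgl1, Igsf11 and Vtcn1) and Hhla2 matched no gene of the table. None of the 15 passed either threshold, 9 were positive and 6 negative, and the median was 0.064. Hmgb1 had the smallest p upward (352.8 and 388.1 CPM, 0.14, edgeR unadjusted p = 0.162) and Lgals9, the TIM-3 ligand galectin-9, downward (107.7 and 96.8 CPM, −0.15, edgeR unadjusted p = 0.142).

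Among 19 genes of checkpoint signalling and PD-L1 regulation 17 were tested, and none passed either threshold. There were 7 positive and 10 negative values with a median of −0.047, led by the phosphatase gene Ptpn2 (43.7 and 46.3 CPM, 0.085, edgeR unadjusted p = 0.253) and by Bag6, which encodes a TIM-3 adaptor (174.6 and 165.1 CPM, −0.080, edgeR unadjusted p = 0.134). Bag6 was the 1 gene of the 17 whose groups did not overlap (at least 169.7 CPM in sgNT and at most 167.5 CPM in sgCda), beside 0.601% of all genes. Cmtm4 and Bat3, an older name of Bag6, matched no gene. Of 17 exhaustion factors 16 were tested (Tox2 was below the filter) and again 0 passed either threshold, with 11 positive, 5 negative and a median of 0.045. The smallest p in each direction was that of Cd101, a marker of terminally exhausted T cells (5.19 and 6.25 CPM, 0.27, edgeR unadjusted p = 0.177), and of Tnfrsf9, the gene for 4-1BB (50.1 and 40.8 CPM, −0.30, edgeR unadjusted p = 0.321).

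Markers of the cells that carry checkpoint proteins overlapped between the groups. For comparison, 0 of all 15299 genes passed the adjusted threshold and 52.9% had a positive log2 fold change. All 13 T cell markers were tested and 0 passed, with 12 positive and 1 negative value and a median of 0.11. Their summed level was 373.5 to 582.5 CPM in sgNT and 267.2 to 854.4 CPM in sgCda tumors, and the score was 4.70 ± 0.25 and 4.73 ± 0.60 (SD, n = 5 each). The 12 macrophage markers had 4 positive and 8 negative values with a median of −0.0098, and summed to 3457 to 4869 CPM and 3397 to 4784 CPM. All 6 regulatory T cell markers were positive with a median of 0.12, 0 of them past an unadjusted p under 0.05, and summed to 39.2 to 69.3 CPM and 44.0 to 76.5 CPM. No defining marker of these 3 lists was at 0, and the lowest was Ikzf4 of the regulatory T cell list (3.22 CPM in sgNT and 3.47 CPM in sgCda).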

How the data were processed

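RNA-seq was analysed for 5 sgNT and 5 sgCda s.c. Panc02 tumors, each from its own mouse, grouped by the sample titles. The authors extracted tumor RNA with TRIzol, made poly(A) libraries with a stranded kit, aligned reads to GRCm38 (mm10) with TopHat and Bowtie, and counted reads per gene with HTSeq. The submitters' processing notes name FastQC 0.11.5, Bowtie2 and HTSeq 07.2. The strand setting and the annotation release are not given in the sources used here. The deposited values are raw counts per gene, not normalized by the authors, and sum to between 28051907 and 39484964 per tumor. Reads of several places or genes are left out by HTSeq, which lowers counts of overlapping genes. The 5 HTSeq summary lines (no_feature reads, 10.3% to 18.4%, among them) were dropped. No 2 libraries were duplicates. Of 37417 genes 32608 had a symbol.

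Genes were filtered with filterByExpr (minimum count 10, minimum total 15), scaled by TMM and tested with edgeR 4.0.16 in R 4.3.3 (glmQLFit and glmQLFTest, all 10 tumors, no covariate), with Benjamini-Hochberg adjustment over all 15299 genes tested. The SE of a fold change was its size over the square root of its F statistic. DESeq2 1.42.0 and limma 3.58.1 were alternatives, besides other scalings, filters, covariates, the replicate number as a block and each tumor left out. The study's methods state no test for these libraries. Intervals are for the difference between the groups, with an SE that reflects the spread between tumors, and do not span the levels of single tumors. Marker scores are mean log2 CPM (prior count 2). Positions are from GENCODE M21 and promoters from RefSeq, both of build GRCm38.

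The checkpoint genes, the pathway lists and the marker lists (T cell, macrophage, dendritic cell, regulatory T cell, NK cell, B cell, endothelial, fibroblast, epithelial, skeletal muscle and adipocyte) were chosen with earlier results of these data known. Named by rule were the 10 genes, Cda, the 3 genes nearest to each by r and, from each pathway list, genes with an unadjusted p under 0.05 or else the smallest p in each direction. Other names were chosen after their values were seen. On counts simulated for 15299 genes, edgeR recovered 131 of 200 genes changed 2-fold (65.5%, 3 false calls) and 75 of 200 changed 1.5-fold (37.5%, 6 false calls). Counts were drawn for each gene independently, so variation that many genes share between tumors, such as that of muscle or T cell markers, was not simulated. Recovery in the real tumors may therefore differ. The changed genes were drawn at random from all genes, whose median biological coefficient of variation was 0.158. Pdcd1, Lag3 and Tox had 0.372, 0.367 and 0.370, and recovery at such a spread was not measured separately.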

Additional observations from a re-analysis of the deposited data

Results flagged for a closer look

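Among the 26 groups of 5 values checked for a tumor far from the others (the 10 checkpoint genes, Cda and 2 marker scores in each group), 1 stood out, where chance gives about 1 in 20, or 1.3 of 26. It was Pdcd1 in sgNT replicate 3, at 6.86 log2 CPM beside 5.75 to 5.93 in the other 4 sgNT tumors, a gap of 0.839 of the group's range against a critical value of 0.71. That tumor ranked second of 10 by the T cell score (5.12) and by the macrophage score (7.57). The part of T cell or macrophage content in this value was not tested.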

How the results depend on the processing

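In all 22 alternatives, 20 planned and 2 chosen after seeing the data (the muscle score as a covariate, and sgCda replicates 3 and 4 left out together), 0 of all genes and 0 checkpoint genes passed an adjusted p under 0.05. Genes at an unadjusted p under 0.05 numbered 382 in the main analysis and 280 to 830 in the alternatives: 830 with a filter of 1 count in any tumor, 719 with limma-voom quality weights and 747 without sgCda replicate 3. The median log2 fold change of the 10 genes ran from −0.0862 to 0.158 with 1 tumor left out. Signs of small fold changes turned in several fits. Without TMM, Tox was 0.0048. In limma-voom, Lag3 was −0.071, Tigit −0.027 and Tox 0.0075, and with quality weights Lag3 was −0.20, Havcr2 −0.087, Tigit −0.23, Ctla4 −0.045 and Tox 0.10. As covariates, the T cell score gave Lag3 −0.14 and Tigit −0.082, the macrophage score −0.077 and −0.027, and the muscle score Lag3 −0.30, Havcr2 −0.00087 and Tigit −0.20. Without sgCda replicates 3 and 4, Lag3 was −0.31, Havcr2 −0.052, Tigit −0.26, Ctla4 −0.095 and Tox 0.10. With 1 tumor left out, log2 fold changes ran from −0.25 to 0.25 for Pdcd1, −0.22 to 0.041 for Cd274, −0.049 to 0.28 for Pdcd1lg2, −0.38 to 0.19 for Lag3, −0.016 to 0.14 for Havcr2, −0.28 to 0.18 for Tigit, −0.18 to 0.11 for Vsir and −0.23 to 0.17 for Tox. The cause of these turns was not tested. Cd276 kept its sign in all 22, from −0.19 to −0.094 with 1 tumor left out and −0.039 with quality weights.

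With the replicate number as a block, 0 genes passed, 325 had an unadjusted p under 0.05, the median of the 10 genes was −0.056, Lag3 was −0.090 and Tigit −0.051. Same-numbered tumors deviated from their group means with r of −0.028, −0.024, 0.33, −0.43 and 0.34, and 2 of the 5 numbers correlated best with themselves. The labels do not say whether the numbers pair the tumors, and these values cannot decide it. Depth limited no checkpoint gene, since each had at least 141 counts per library.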

Other observations

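Cell types outside the comparisons above gave these values, each list over the same 10 tumors. Of 8 dendritic cell markers 7 had a positive log2 fold change (median 0.17, 0 with an unadjusted p under 0.05, edgeR), of 7 NK cell markers 4 (median 0.18, 0), and of the 4 B cell markers tested 3 (median 0.054, 1 with an unadjusted p under 0.05, Cd79a, at 0.51, edgeR unadjusted p = 0.0475). The 7 endothelial markers had 5 negative values (median −0.25), the 8 fibroblast markers 6 (median −0.058) and the 5 adipocyte markers 2 (median 0.53), none with an unadjusted p under 0.05. The 6 epithelial markers had a median of 0.12 with 1 under that threshold (Epcam, 0.78, edgeR unadjusted p = 0.0305), and all 8 skeletal muscle markers were positive with a median of 1.68 and 0 under it. Among all genes, 2.50% had an unadjusted p under 0.05 by the same test. Both named genes were at low levels. Mean CPM of Cd79a was 0.828 (sgNT) and 1.18 (sgCda), and that of Epcam was 1.03 (sgNT) and 1.77 (sgCda). No list had a gene with an adjusted p under 0.05.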
